A study of Mus musculus with 2 samples.

Results

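The interleukin 6 (IL-6) family was followed in fetal thymic stromal cells grown in 2 ways. The members were the cytokine genes Il6, Lif, Il11 and Osm, the receptor genes Il6st, Il6ra, Il11ra1, Lifr and Osmr, and the feedback inhibitor gene Socs3. A probe belonged to the family when the array named it, by symbol or by transcript accession, as 1 of these 10 genes. Probes of 9 of the 10 genes were found, 16 probes among the 41174 probes other than controls, and Lif was not analysed here. The family was picked because Il6 had 1 of the lowest ratios between the cultures, so the ratios of the members are given as a description. Members called by the test over all probes are counted beside the share of all probes, and nothing is read from those counts.

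The 2 arrays each carried RNA of stromal cells in reaggregation thymus organ culture (RTOC), labelled with Cy5, and RNA of the same kind of cells in 2D culture on a dish, labelled with Cy3. Cells came from C57BL/6 fetal thymus lobes, and the lobes of both cultures had been treated with 1.35 mM deoxyguanosine, which depletes haematopoietic cells. The first array held cells of E14.5 fetuses after 8 days of fetal thymus organ culture, the second cells of E15.5 fetuses after 9 days, and RNA was taken after 72 h in RTOC or 2D culture. Each of the 4 channels was bulk RNA of a mixed stroma with no stated sorting, so that fewer cells of a type and less RNA per cell cannot be told apart. The dyes were not swapped, which leaves dye and culture inseparable, and the array goes with stage and with days in organ culture, so that these cannot be told apart either.

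Cytokines of this family signal through receptor complexes that contain gp130, the product of Il6st, as the shared signal-transducing chain. Il6ra and Il11ra1 encode the chains that bind IL-6 and IL-11, whereas Lifr and Osmr encode chains that pair with gp130 for leukaemia inhibitory factor and oncostatin M. Receptor engagement activates JAK kinases and the transcription factor STAT3, and STAT3 induces Socs3, whose product binds gp130 and shuts off the signal. Stromal cells of the thymus are known sources of IL-6 family cytokines, and leukaemia inhibitory factor and oncostatin M are known for their effects on thymus size and structure.

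The upstream sequences of 3 members are shown because the 2 cytokine genes had the lowest ratios of the family and Socs3 is the feedback gene induced by STAT3. Each is the 250 bases before an annotated start in the RefSeq table of GRCm38.p6, 5′ to 3′ on the strand of the gene. Capitals mark matches, on either strand, to the letters searched, which were STAT TTCNNNGAA, AP-1 TGANTCA, C/EBP TTGCNNAA, CRE TGACGTCA and TEAD GGAATG, with the NF-kB motif and the CArG box searched by name. The Il6 sequence lies at chr5:30012864-30013113 (+ strand), the Il11 sequence at chr7:4778142-4778391 (- strand) and the Socs3 sequence at chr11:117969367-117969616 (- strand).
Il6: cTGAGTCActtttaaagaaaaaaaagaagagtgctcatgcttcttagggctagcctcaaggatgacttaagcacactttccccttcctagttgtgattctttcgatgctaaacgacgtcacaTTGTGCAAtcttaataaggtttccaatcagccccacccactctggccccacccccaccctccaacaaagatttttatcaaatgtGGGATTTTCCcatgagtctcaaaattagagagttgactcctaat
Il11: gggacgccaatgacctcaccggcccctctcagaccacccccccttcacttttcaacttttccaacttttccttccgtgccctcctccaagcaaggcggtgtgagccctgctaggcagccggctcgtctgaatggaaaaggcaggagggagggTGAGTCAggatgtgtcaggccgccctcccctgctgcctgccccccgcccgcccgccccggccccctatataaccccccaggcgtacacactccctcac
Socs3: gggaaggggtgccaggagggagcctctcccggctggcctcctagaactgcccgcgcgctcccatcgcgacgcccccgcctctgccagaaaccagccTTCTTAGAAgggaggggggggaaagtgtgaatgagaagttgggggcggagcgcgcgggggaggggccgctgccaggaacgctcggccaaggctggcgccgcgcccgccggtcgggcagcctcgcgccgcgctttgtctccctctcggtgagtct
In Il6 an AP-1 match began 249 bases, a C/EBP match 128 bases and an NF-kB match 44 bases before the start. In the Il11 window an AP-1 match began 98 bases before the start, and in Socs3 a STAT match began 154 bases before it. The window of the other annotated Il11 start held no match, and nor did those of Il6ra, Il6st and Lifr. Of the members not printed, Lif had an AP-1 match that began 228 bases before its start, Osmr an AP-1 match just after its start and Il11ra1 a TEAD match 78 bases before its second start. Among 32851 promoter windows of 250 bases before to 50 bases after a start, AP-1 letters were in 7.81%, C/EBP letters in 10.8%, the NF-kB motif in 4.51%, TEAD letters in 14.7% and STAT letters in 8.30%. These matches are letters in a window and nothing about binding was measured.

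Il6, the founding cytokine of the family, is annotated on chromosome 5 from 30013114 to 30019975 and had 1 probe, which was printed at 10 spots on each array. Its processed signal, the intensity that Feature Extraction gives once background is subtracted and the dyes are balanced, was 9495 (2D) against 55.7 (RTOC) at E14.5. At E15.5 it was 3523 (2D) against 21.8 (RTOC). Both 2D channels were high and well above background, and both RTOC channels were low and not well above background. The 10 spots ran from 8873 to 10509 in 2D culture and from 37.2 to 69.0 in RTOC on the E14.5 array. They ran from 3372 to 3945 in 2D culture and from 13.97 to 30.2 in RTOC on the E15.5 array. No spot of 1 culture overlapped with a spot of the other, although spots of 1 array share the RNA and are not replicates.

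**Figure D1:**
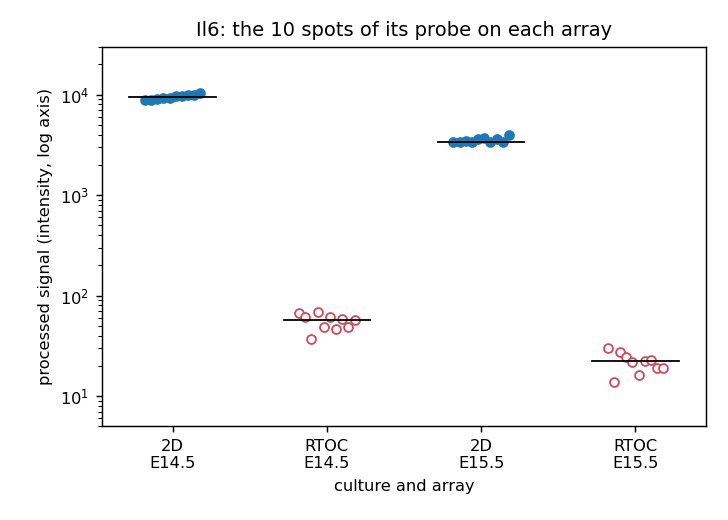
Processed signal (intensity, log axis) of the 10 spots of the Il6 probe by culture and array, with a line at the median of the spots. Filled points are 2D channels well above background and open points are RTOC channels not well above background. Medians are 9487 (2D) and 57.8 (RTOC) at E14.5 and 3411 (2D) and 22.3 (RTOC) at E15.5, so the cultures are far apart on both arrays.

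After quantile normalization of the 4 channels, the log2 ratio for Il6, RTOC over 2D culture, came to -7.42 at E14.5 and -7.50 at E15.5, with a mean of -7.46 ± 0.05 (SD of n = 2 arrays). Because Il6 was not well above background in RTOC, the ratio has only a bound there. With normexp background correction and loess, which raise dim signals, the mean log2 ratio was -3.59 ± 0.73 (SD of n = 2 arrays), and Il6 was at least 11.9-fold lower in RTOC against the lowest signal that counted as well above background. The direction was the same on both arrays and at every scaling tried, and the size depended on how the RTOC background was treated.

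Il11, a cytokine that signals through gp130 after binding the Il11ra1 chain, is annotated on chromosome 7 from 4772373 to 4782907. Its probe gave a processed signal of 23231 (2D) against 2559 (RTOC) at E14.5. At E15.5 it gave 3779 (2D) against 414 (RTOC). All 4 channels were well above background and both 2D channels were higher than both RTOC channels. The log2 ratio was -3.08 (E14.5) and -3.23 (E15.5), with a mean of -3.16 ± 0.11 (SD of n = 2 arrays), or 8.94-fold lower in RTOC. With normexp and loess its mean was -2.59 ± 0.58 (SD of n = 2 arrays), a smaller move than that of Il6.

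Osm, the gene of oncostatin M on chromosome 11, had 2 probes and neither passed the filter for testing. The brighter probe had signals of 63.7 (2D) against 75.1 (RTOC) at E14.5 and 84.0 (2D) against 82.7 (RTOC) at E15.5, with 1 of the 4 channels well above background. The signals lay close together and near background in both cultures, so no ratio is given. The dimmer probe ran from 11.03 to 15.7 and was not well above background in any channel.

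Among the receptors, Il11ra1 and Lifr were higher in RTOC. Il11ra1 is annotated on chromosome 4 from 41760443 to 41769473, beside near-identical gene copies, and the share of its signal that such copies give is uncertain. The brighter of its 2 probes gave a processed signal of 7618 (2D) against 38536 (RTOC) at E14.5 and 5628 (2D) against 29502 (RTOC) at E15.5. The dimmer probe gave 2475 (2D) and 11075 (RTOC) at E14.5, and 2027 (2D) and 9260 (RTOC) at E15.5. Both RTOC channels were higher than both 2D channels at each probe, all of them well above background. The mean log2 ratio was 2.40 ± 0.15 (SD of n = 2 arrays) at the brighter probe, or 5.29-fold higher in RTOC, and 2.19 ± 0.06 at the dimmer one. The log2 ratios of the brighter probe were 2.30 (E14.5) and 2.51 (E15.5), and its mean was 2.26 with normexp and loess. Il11ra1 was higher in the culture in which Il11 was lower.

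Lifr, the receptor chain for leukaemia inhibitory factor, lies on chromosome 15 from 7090610 to 7197489 and had 4 probes, all dim. The brightest gave a processed signal of 98.6 (2D) against 645 (RTOC) at E14.5 and 211 (2D) against 939 (RTOC) at E15.5. At each of the 4 probes the RTOC channel was higher than the 2D channel of the same array. The RTOC channels were all well above background, whereas only some 2D channels were. The brightest probe had log2 ratios of 2.62 (E14.5) and 2.16 (E15.5), with a mean of 2.39 ± 0.32 (SD of n = 2 arrays). The mean log2 ratios of the other probes were 1.27 ± 0.27, 1.15 ± 0.16 and 1.25 ± 0.45, so the probes of the gene differed in size and had 1 direction. The dimmest, with signals of 78.8 and 43.4 in 2D culture that were not well above background, was 1.15-fold higher in RTOC with normexp and loess. That value uses its own 2D signal, so it is a ratio at this scaling and not a separate lower limit. With normexp and loess the mean log2 ratios of the 4 probes lay between 0.20 and 0.95. A further probe, which the array names by a clone and RefSeq lists as a synonym of Lifr, was outside the rule, and its log2 ratios averaged 1.76 ± 0.25 (SD of n = 2 arrays).

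Osmr, the receptor chain for oncostatin M, lies near Lifr on chromosome 15, annotated from 6813568 to 6874968. Its brighter probe gave a processed signal of 9551 (2D) against 5033 (RTOC) at E14.5 and 7707 (2D) against 4850 (RTOC) at E15.5. Both 2D channels were higher than both RTOC channels. Its log2 ratio was -0.88 (E14.5) and -0.66 (E15.5), with a mean of -0.77 ± 0.16 (SD of n = 2 arrays). The dimmer probe had signals of 478 (2D) and 252 (RTOC) at E14.5 and of 337 (2D) and 150 (RTOC) at E15.5, with log2 ratios that averaged -1.06 ± 0.20 (SD of n = 2 arrays). Its mean was -0.34 with normexp and loess. The ratios of Osmr and Lifr thus had opposite directions on both arrays.

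Il6st, the gp130 gene on chromosome 13, was well above background in every channel. Its processed signal was 3920 (2D) against 2230 (RTOC) at E14.5 and 3398 (2D) against 2986 (RTOC) at E15.5. The 2D channel was higher on each array, by more on the E14.5 array than on the E15.5 array. The log2 ratio was -0.79 (E14.5) and -0.18 (E15.5), with a mean of -0.49 ± 0.43 (SD of n = 2 arrays), which is of the size of the spread between the arrays. With normexp and median centring its E15.5 ratio turned to 0.19.

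Il6ra, the ligand-binding chain for IL-6 on chromosome 3, was dim in both cultures. The brighter of its 2 probes had a processed signal of 231 (2D) against 136 (RTOC) at E14.5 and 177 (2D) against 187 (RTOC) at E15.5. The order of the cultures was reversed between the arrays, and so it was at the dimmer probe. The log2 ratios of the brighter probe were -0.81 (E14.5) and 0.05 (E15.5), with a mean of -0.38 ± 0.61 (SD of n = 2 arrays). Those of the dimmer probe were -0.91 and 0.37, with a mean of -0.27 ± 0.91 (SD of n = 2 arrays). With normexp and median centring both means turned, to 0.01 and 0.05, so no direction is given.

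Socs3, the inhibitor that STAT3 induces, was bright in every channel and is annotated on chromosome 11 from 117966079 to 117970336. Its processed signal was 4423 (2D) against 6271 (RTOC) at E14.5 and 8414 (2D) against 5640 (RTOC) at E15.5. RTOC was the higher culture on the first array and the lower on the second. The log2 ratio was 0.51 (E14.5) and -0.58 (E15.5), with a mean of -0.03 ± 0.77 (SD of n = 2 arrays) that turned to 0.14 with normexp and median centring and to 0.11 with processed signals centred on the median. A probe that is described as Socs3 but carries another name, and so was outside the rule, had log2 ratios of 0.10 (E14.5) and -0.02 (E15.5). Socs3 therefore showed no common direction on the 2 arrays, where Il6 and Il11 were lower in RTOC on both.

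**Figure D2:**
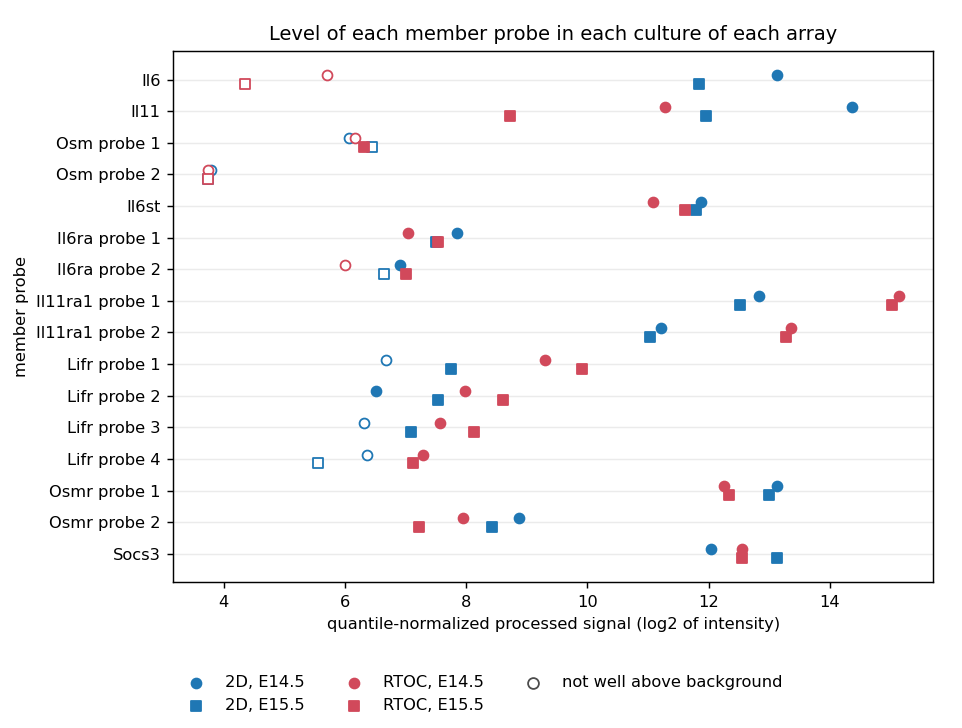
Quantile-normalized processed signal (log2 of intensity) of the 16 member probes, with blue for 2D culture, red for RTOC, circles for the E14.5 array and squares for the E15.5 array, and open symbols where a channel was not well above background. Levels of different probes cannot be compared. The RTOC symbols lie left of the 2D symbols of the same array for Il6, Il11, Osmr and Il6st. They lie right of them for Il11ra1 and Lifr, and in no common order for Socs3 and Il6ra.

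Taken by the brightest probe, 8 member genes were tested. At an adjusted p threshold of 0.05 from limma, a linear model that borrows spread across probes, 2 of them were higher in RTOC (Il11ra1 and Lifr) and 2 were lower (Il6 and Il11). Of all 23685 tested probes, 15.2% were called higher and 13.6% lower. The same 2 genes were at least 2-fold higher on both arrays and the same 2 at least 2-fold lower, against 10.8% and 9.35% of all tested probes. Nothing is read from these counts, since the members were picked on this contrast. The 4 genes that did not pass were Osmr, Il6st, Il6ra and Socs3, and the dimmer Osmr probe did pass. Over the 8 genes the median log2 ratio was -0.43, and over all tested probes it was -0.01. Osmr at its brighter probe was on the other side of the threshold with normexp and loess, by which 5 member genes were called. Il11 was not called with no replicate block, Il6 was not tested where both channels had to be well above background, and none of the 4 genes was called with no filter on dim probes or by the adjusted form of the methods' t-test.

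**Figure D3:**
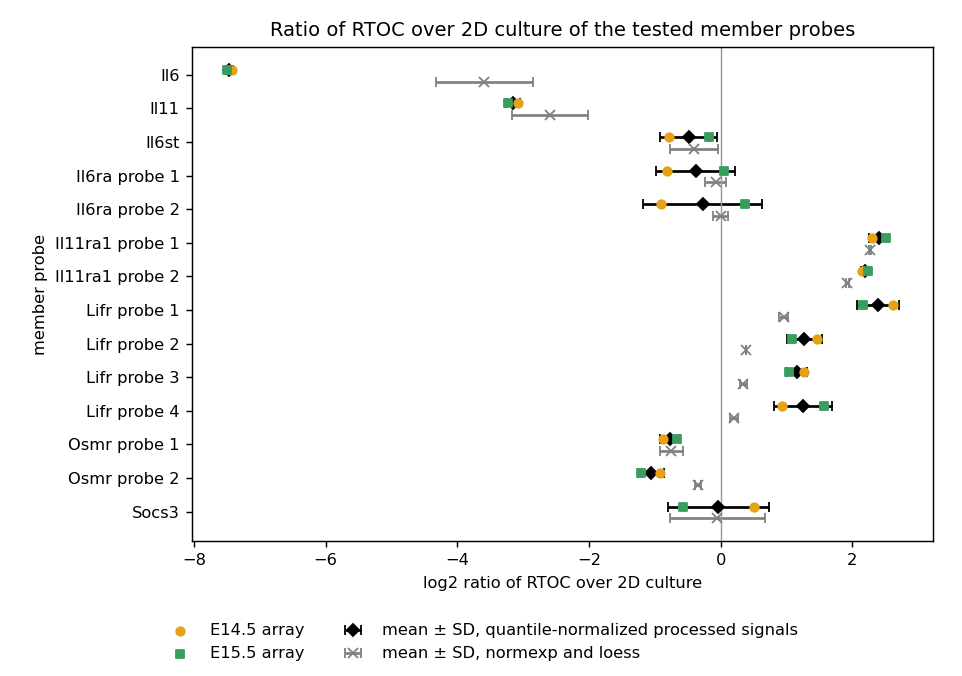
Log2 ratio (RTOC over 2D culture) at the 14 tested member probes. Circles and squares are the E14.5 and E15.5 arrays, black diamonds with bars are the mean ± SD of the 2 arrays, and grey crosses with bars are the mean ± SD after normexp and loess. Il6 moves from -7.46 to -3.59 and the brightest Lifr probe from 2.39 to 0.95, whereas the brighter Il11ra1 probe stays at 2.40 and 2.26.

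**Figure D4:**
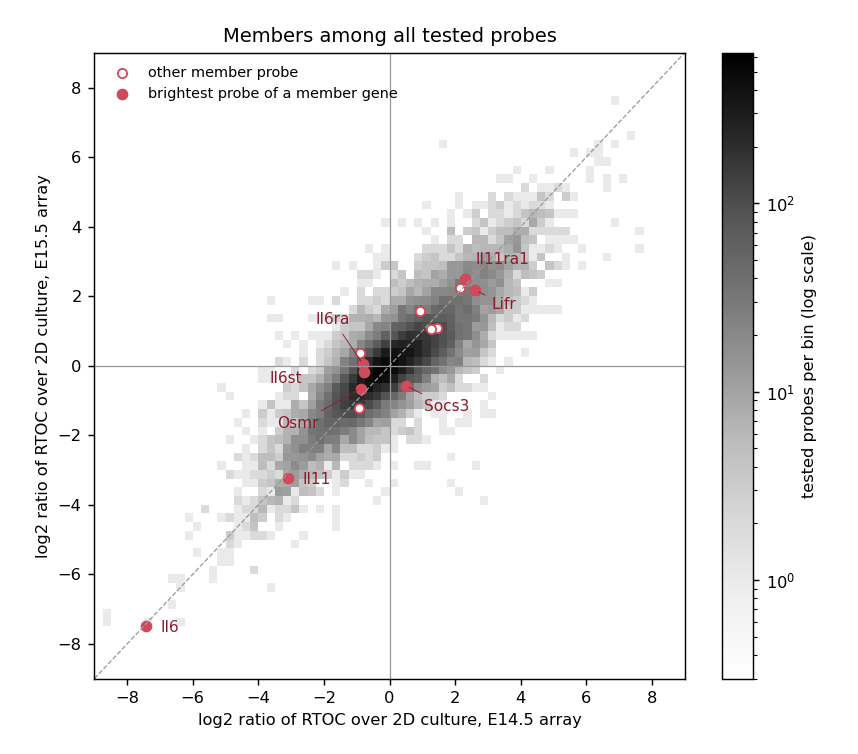
Log2 ratio of RTOC over 2D culture, the E14.5 array on the x axis against the E15.5 array on the y axis, with the 23685 tested probes in grey bins and the member probes in red, filled for the brightest probe of a gene. Il6 lies at the lower left end at -7.42 and -7.50, and Il11, Il11ra1 and Lifr lie along the diagonal inside the range of the other probes.

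The levels also differed between the arrays within a culture. In 2D culture the normalized level of Il11 was higher by 2.40 on the log2 scale on the E14.5 array than on the E15.5 array, and that of Il6 by 1.28. In RTOC the difference was 2.55 for Il11, which was thus higher on the E14.5 array in each culture. The difference of Il6 in RTOC, 1.35, lies between 2 channels that were not well above background, and nothing is read from it. A difference as large as that of Il11 was found at 1.09% of the tested probes in 2D culture and at 0.215% in RTOC. For Socs3 the same difference was -1.10 in 2D culture and -0.01 in RTOC at the member probe. At the probe outside the rule that is described as Socs3 it was -0.66 in 2D culture and -0.55 in RTOC, so the 2 probes differed. Lifr differed by -1.07 in 2D culture and by -0.62 in RTOC at its brightest probe. In all, 4 member genes (Il6, Il11, Lifr and Socs3) differed by at least 2-fold between the arrays in 2D culture and 2 (Il11 and, between channels not well above background, Il6) did so in RTOC, against 14.4% and 6.58% of all tested probes. There was 1 array per stage, so these differences were not tested.

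The 5 genes whose pair of log2 ratios lay nearest to that of Il6, by Euclidean distance over the 2 arrays among genes taken by their brightest tested probe, were 9530076L18, Ppbp, Olr1, Ptgs2 and Csf2. 9530076L18, a transcript named only by a clone, had log2 ratios of -8.65 (E14.5) and -7.30 (E15.5) at a distance of 1.24. Ppbp, a platelet chemokine listed on the array as Cxcl7, had -6.27 and -6.45 at a distance of 1.56. Olr1, a receptor for oxidized low-density lipoprotein, had -6.65 and -6.04 at a distance of 1.65. Ptgs2, the inducible cyclooxygenase, had -6.38 and -6.001 at a distance of 1.83, and its other probe had a mean log2 ratio of -7.81. Csf2, the gene of granulocyte-macrophage colony-stimulating factor, had -5.85 and -5.41 at a distance of 2.61. Ppbp and Ptgs2 were well above background in all channels, whereas the other 3 were not in RTOC and have bounds of at least 8.36-fold (9530076L18), 3.38-fold (Olr1) and 3.08-fold (Csf2) lower. They were chosen for this likeness, so it is given without a test.

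Genes of the pathway outside the members were taken from 7 lists, each by its brightest probe and with limma's adjusted p over all tested probes. Of their 70 tested genes, 7 were higher and 13 lower in RTOC, beside 15.2% and 13.6% of all tested probes. Among the other ligands, 6 of 7 were tested, 1 was higher, 2 were lower and 3 did not pass, with a median log2 ratio of -0.36. Clcf1, a cytokine that acts through gp130 and the Lifr chain, fell, with a mean of -1.90 ± 0.36 (SD of n = 2 arrays; limma adjusted p = 0.00729), which no longer passed with normexp and loess at -0.52. Ebi3, a subunit of IL-27 and IL-35, rose by a mean of 1.25 ± 0.03 (limma adjusted p = 0.0193). Of the other receptors only Cntfr, which binds ciliary neurotrophic factor, was tested, and it did not pass at -0.44 ± 0.52.

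Downstream of the receptors, 1 of 12 signal transducers rose and 11 did not pass, with a median log2 ratio of 0.26. Stat3, the main transcription factor of the pathway, had 0.15 ± 0.19 (SD of n = 2 arrays; limma adjusted p = 0.677), and the kinase gene Jak1 had 0.39 ± 0.07 (limma adjusted p = 0.280). Of 11 tested signal inhibitors 2 rose, 1 fell and 8 did not pass, with a median of 0.44. Ptpn6, a phosphatase of blood cells, rose by a mean of 1.77 ± 0.72 (limma adjusted p = 0.0159) at its brightest probe, while its other probe had 0.13. Cish, a STAT5 target of the same family as Socs3, rose by 1.11 ± 0.24 (limma adjusted p = 0.0297), which did not pass with normexp and median centring. Socs6 had a mean of -1.93 ± 0.32 (limma adjusted p = 0.00663) and was lower, and Socs1, a close relative of Socs3, did not pass at 0.68 ± 0.41.

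Among genes that STAT3 is known to activate, 19 of 21 were tested, 1 rose, 5 fell and 13 did not pass, with a median log2 ratio of -0.18. Timp1, a metalloproteinase inhibitor, had processed signals of 63001 in 2D culture and 5698 in RTOC (E14.5) and of 51021 and 4102 (E15.5), and a mean log2 ratio of -3.53 ± 0.10 (SD of n = 2 arrays; limma adjusted p = 0.00172). Ccnd1, the gene of cyclin D1, had -2.80 ± 0.26 (limma adjusted p = 0.00256), and Junb, an AP-1 subunit, had -1.72 ± 0.31 (limma adjusted p = 0.00913). Bcl2l1, which encodes a survival factor, had -1.50 ± 0.27 (limma adjusted p = 0.0133), a call lost with normexp and median centring. Saa3, an acute-phase gene, was the member of the list that rose, at 2.67 ± 0.01 (limma adjusted p = 0.00257), but its 2D channels were not well above background, which leaves a bound of at least 1.37-fold higher in RTOC, and the call was lost at 0.51 with normexp and loess.

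Of 21 genes upstream of Il6, which either drive its transcription or control the decay of its messenger RNA, 2 rose, 4 fell and 15 did not pass, with a median log2 ratio of -0.18. Nfkb1, which encodes an NF-kB subunit, rose by 1.91 ± 0.38 (SD of n = 2 arrays; limma adjusted p = 0.00731), and Zfp36l1, an mRNA decay factor, rose by 1.48 ± 0.15 (limma adjusted p = 0.0126). Rela, which encodes another NF-kB subunit, was lower at -0.91 ± 0.13 (limma adjusted p = 0.0477). The call of Rela was lost with normexp and median centring and with processed signals centred on the median. The AP-1 subunit genes Fosl1 and Jun were lower, with means of -2.78 ± 0.25 (limma adjusted p = 0.00259) and -1.18 ± 0.14 (limma adjusted p = 0.0235). Arid5a, whose product stabilizes Il6 messenger RNA, was lower at -1.69 ± 0.21 (limma adjusted p = 0.00877). Fosl1 and Arid5a did not pass with normexp and loess, and Jun did not pass with normexp and median centring. The receptor sheddase gene Adam10 was lower at -1.004 ± 0.03 (limma adjusted p = 0.0354), which passed at 1 of 5 other scalings, and Adam17 did not pass at 0.25 ± 0.39. Of the 20 pathway genes called, 9 passed at all 5 other scalings tried. These 5 count normexp with loess both with and without Aquantile scaling between arrays. Aquantile leaves the log2 ratios unchanged, so those 2 scalings had to agree.

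**Figure D5:**
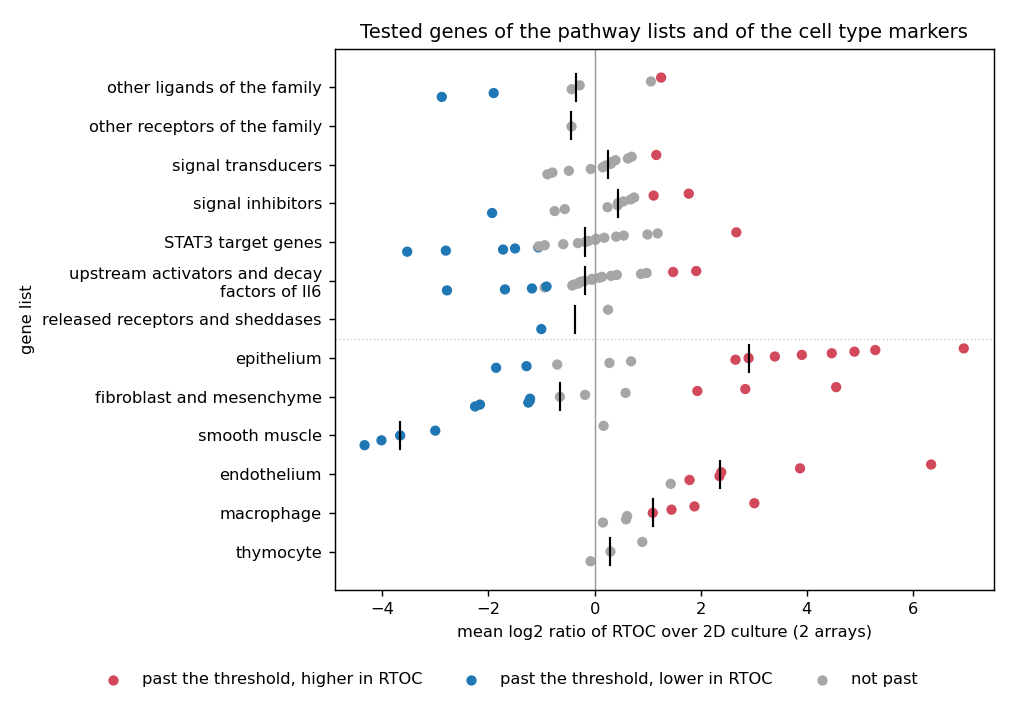
Mean log2 ratio of RTOC over 2D culture (2 arrays) of each tested gene of the 7 pathway lists, above the dotted line, and of the cell type markers, below it. Red and blue points passed the limma threshold as higher and lower in RTOC, grey points did not pass, and the black bar is the median of the list. Smooth muscle has a median of -3.66 and epithelium one of 2.90, while the medians of the pathway lists lie between -0.44 and 0.44.

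Markers of several cell types differed between the cultures. Of 13 epithelial markers 8 were higher and 2 lower in RTOC, with a summed quantile-normalized signal, over the brightest probe of each marker, of 314653 and 643119 in 2D culture and of 1092130 and 1091680 in RTOC (E14.5 and E15.5). Of 5 smooth muscle markers 4 were lower, with sums of 634625 and 532997 in 2D culture and of 67096 and 40460 in RTOC. Of 11 fibroblast and mesenchyme markers 3 were higher and 5 lower, with sums of 477722 and 366670 in 2D culture and of 304864 and 314558 in RTOC. Of 6 endothelial markers 5 were higher and none lower, with sums of 1542 and 635 in 2D culture and of 6416 and 9961 in RTOC, and of 7 macrophage markers 4 were higher and none lower, with sums of 68928 and 56991 in 2D culture and of 167939 and 218328 in RTOC. Of 6 thymocyte markers none of the 3 tested passed, and Cd4, Cd8a and Rag1 did not pass the filter on dim probes. The part of these cell types in the lower Il6 and Il11 and the higher Il11ra1 and Lifr was not tested.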

How the data were processed

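The authors hybridized RNA to 2 two-colour whole-genome mouse arrays and ran Feature Extraction. The deposited files hold, per spot, processed, mean and background signals as an intensity, and a log10 ratio of Cy5 over Cy3. File headers name Feature Extraction 9.1.3.1 and the submitters' processing notes 11.5.1.1; the authors' methods name quantile normalization. The deposited table of series values was not used. Labels name TRIzol and the methods a column kit for extraction.

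Here, control spots and outlier-marked spots (5 on the E14.5 array, 1 on the E15.5 array) were left out, the processed signals of the 4 channels were quantile normalized, log2 ratios were averaged over spots of a probe, and 23685 of 41174 probes with at least 1 channel well above background on each array (for a probe with several spots, in most of them) were tested against 0 with limma 3.58.1 (R 4.3.3; lmFit with an intercept, eBayes, two-sided, Benjamini-Hochberg, threshold 0.05). With 2 arrays and 1 residual degree of freedom, p-values take most of their spread from other probes, and the number of arrays limits precision. The arrays were described as independent experiments and served as replicates; each array holds both cultures and so acts as a block. The arrays shared 1 slide and 1 scan. Well above background were 53.1% and 53.5% of the probes in 2D culture and 56.3% and 60.9% in RTOC (E14.5 and E15.5). A bound was the mean of the brighter culture over that of the lowest signal well above background in the dimmer one, or its own signal where higher, after normexp, loess and Aquantile, with dye bias open.

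Probes were named by accession (22951), symbol (6659) or older symbol (3109) in a RefSeq table of GRCm38.p6, and 8455 kept the file's name. A gene stood for its brightest probe. Named were all members, Stat3, Jak1 and Socs1, and the 5 genes nearest to Il6. Up to 5 genes of each pathway list were named, with the largest change among those past the threshold and of 1 sign on both arrays. Cntfr, Adam17, Rela, the list genes given for a differing other probe and the single cell type markers were named after their values were seen. The members and lists were chosen with earlier results of these data known. Alternative scalings were normexp (offset 50) with loess, with Aquantile or with median centring, median-centred processed signals and the deposited log ratios. Other alternatives were no filter, both channels well above background, outliers kept, leaving out each array, and trended and robust eBayes. A fit with no replicate block, a one-sample t-test on the log ratios of the arrays, a 2-fold threshold and all probes of a gene were also tried. The authors' methods name Student's t-test for the study and no test for the arrays, so the one-sample form was chosen here. The trended eBayes fitted its trend over the mean log2 ratio and not over intensity, and Aquantile leaves log2 ratios unchanged. The limma fit, but not the normalization, filter or bounds, was tried on log ratios simulated from its own fitted spread with known changes. Some genes of the lists are not reported here by name.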

Additional observations from a re-analysis of the deposited data

Results flagged for a closer look

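The log2 ratio of RTOC over 2D culture had opposite signs on the 2 arrays for Il6ra and Socs3. The ratio on the E14.5 array minus that on the E15.5 array was -0.86 at the brighter Il6ra probe, -1.28 at the dimmer Il6ra probe and 1.08 at the Socs3 member probe. The probe outside the rule that is described as Socs3 had ratios of 0.10 (E14.5) and -0.02 (E15.5), so it did not repeat a difference of that size. With 1 array per stage these differences were not tested. Opposite signs were found at 19.98% of all tested probes, and 11.9% of them differed between the arrays by at least as much as Socs3.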

How the results depend on the processing

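Il6, Il11, Il11ra1, Lifr and both Osmr probes kept their direction on both arrays at every scaling tried. The mean of Il6st kept its sign, but its E15.5 ratio turned to 0.19 with normexp and median centring and to 0.05 with processed signals centred on the median, and the means of Il6ra and Socs3 turned at some scalings. The main test called 6820 probes and 4 member genes. Normexp with loess, with or without Aquantile, called 3716 probes and 5 member genes, the fifth being Osmr, and normexp with median centring called 2907 probes. With no filter on dim probes limma called 0 probes, 0 member genes and 0 pathway genes. At an unadjusted limma p under 0.05 there were 10666 probes and 5 member genes without the filter, and 10228 and 5 with it. The fit with no replicate block called 4033 probes and 3 member genes, without Il11. The one-sample t-test called 0 probes and 0 member genes after Benjamini-Hochberg adjustment, and 3539 probes and 3 member genes unadjusted. Of the calls, 52.9% were higher in RTOC in the main test. That share was 76.4% with normexp and median centring and 65.1% with processed signals centred on the median. It was 41.1% with trended and robust eBayes, whose trend was fitted over the mean log2 ratio and not over intensity. Normexp with median centring moved the median log2 ratio of the tested probes from -0.01 to 0.12, and median-centred processed signals moved it to 0.15. With 1 array left out, 6445 (without the E14.5 array) to 8397 (without the E15.5 array) probes, against 4780 on both, were at least 2-fold changed, and member genes numbered 4 either way; limma has no residual degrees of freedom there, so its counts were not run. The cause of these moves was not tested. Signal over background limits Il6 in RTOC, Lifr in 2D culture, and Il6ra and Osm in both cultures.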
